A study of Mus musculus with 54 samples.

Results

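The 10 genes described here act in mitochondrial fusion (Mfn1, Mfn2, Opa1), fission (Dnm1l, Fis1), transport (Rhot1, Rhot2) and receptor-mediated mitophagy (Bnip3, Bnip3l, Fundc1). They were chosen by symbol from the 16632 genes of the count table, and all 10 passed the filter on low counts that left 13169 genes for testing. The cells were primary microglia, the brain's own macrophages, from neonatal C57BL/6 mice, grown on an astrocyte layer and shaken off it. No genetic modification is given in the labels. Donor cultures received 1 µM alpha-synuclein (aSyn), the protein that aggregates in Parkinson's disease, carrying an Atto-488 dye, for 14 h. Acceptor cultures received no aSyn and were stained with the dye CellTracer Violet for 15 min. Donors and acceptors were then mixed and later separated by flow cytometry.

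There were 14 groups. Untreated cells and aSyn-treated cells without co-culture formed 1 group each. Donors and acceptors formed 1 group each at 0, 15, 30, 60, 150 and 300 min. The protocol names co-culture times from 15 min on and does not describe the 0 min samples. The 54 libraries carry replicate numbers from 1 to 4, and 2 pairs of untreated libraries that share a number were summed, which left 52 units with 3 or 4 per group. The labels do not say whether numbers mark separate animals or cultures, so p-values measure the spread between these samples, which may in part be technical. The labelled cell passage is 3 for replicate 1, 1 for replicate 2 and 2 for replicates 3 and 4. Replicate 4 has no library at 0 min. Replicate 2 has none for donors at 60 min, and replicate 3 has none for acceptors at 300 min.

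As background, mitochondria form a network that fuses and divides. The mitofusins Mfn1 and Mfn2 join outer membranes, and Opa1 joins inner membranes and shapes cristae. Dnm1l (Drp1) is the dynamin-like GTPase that constricts and divides mitochondria, and Fis1 is a small outer-membrane protein linked to fission. Rhot1 and Rhot2 encode the Miro GTPases, which couple mitochondria to motor proteins, also during movement along the membrane bridges called tunnelling nanotubes. Bnip3, Bnip3l (Nix) and Fundc1 are outer-membrane receptors that bind LC3-family proteins and so mark mitochondria for autophagy, and transcription of Bnip3 and Bnip3l is induced by hypoxia in many cell types.

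Library totals ranged from 7807389 to 15537493 counts, and the members had between 128 (Mfn1) and 6278 (Bnip3l) counts in a unit. The 10 microglia markers examined were detected in every unit, with summed levels of 2467 to 10445 CPM (counts per 1000000 of the TMM-scaled library size). Tmem119 and P2ry12, which mark homeostatic microglia, were low, at 0.9 to 13.1 and 1.5 to 12.3 CPM. The 8 astrocyte markers summed to 11.3 to 138.6 CPM in untreated cells (median 48.2) and to 11.2 to 29.3 CPM in aSyn-treated cells (median 15.3). In acceptors at 60 min they summed to 8.6 to 37.4 CPM. The 5 oligodendrocyte-lineage markers summed to 111.7 to 530.6 CPM in untreated and 74.3 to 230.5 CPM in aSyn-treated cells. Their part in any comparison against untreated cells was not tested. Over all units, 4 neuronal markers summed to at most 4.97 CPM, 3 fibroblast markers to at most 23.7 CPM and 2 endothelial markers to between 26.5 and 105.2 CPM. Replicate 4 had the lowest microglia marker sum in each of the 12 groups that have it, at 2711 CPM in aSyn-treated cells against 6179 to 7012 CPM in the other 3 replicates, and at 5278 against 7237 to 9410 CPM in untreated cells. In donors from 15 min on it stood at 2467 to 2822 CPM, and the other replicates there at 6217 CPM or more. In bulk samples, fewer cells of a type and less RNA per cell cannot be told apart. The ribosomal RNA precursor Rn45s took 13.4 to 22.1% of counts in replicate 4 and 1.42 to 13.5% in the others, and its part in the replicate differences below was not tested.

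Because QuantSeq reads come from the 3′ end of each transcript, the CPM of a gene is not proportional to its length. On this scale Bnip3l was the most abundant member, with a median of 236.4 CPM over the 52 units. Its mean log2 CPM reached or exceeded that of 95.6% of the tested genes. Fis1 followed with 82.7 CPM and Rhot1 with 47.9 CPM. Opa1 (32.6), Bnip3 (31.2), Dnm1l (29.8), Fundc1 (29.4), Mfn2 (28.4) and Rhot2 (25.8) lay close together in median CPM, and Mfn1 was lowest at 18.1 CPM. A mitophagy receptor, a fission gene and a Miro gene were thus the most abundant. Bnip3 and Fundc1, the other mitophagy receptors, lay close to each other, as did the fusion genes Opa1 and Mfn2.

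**Figure D1:**
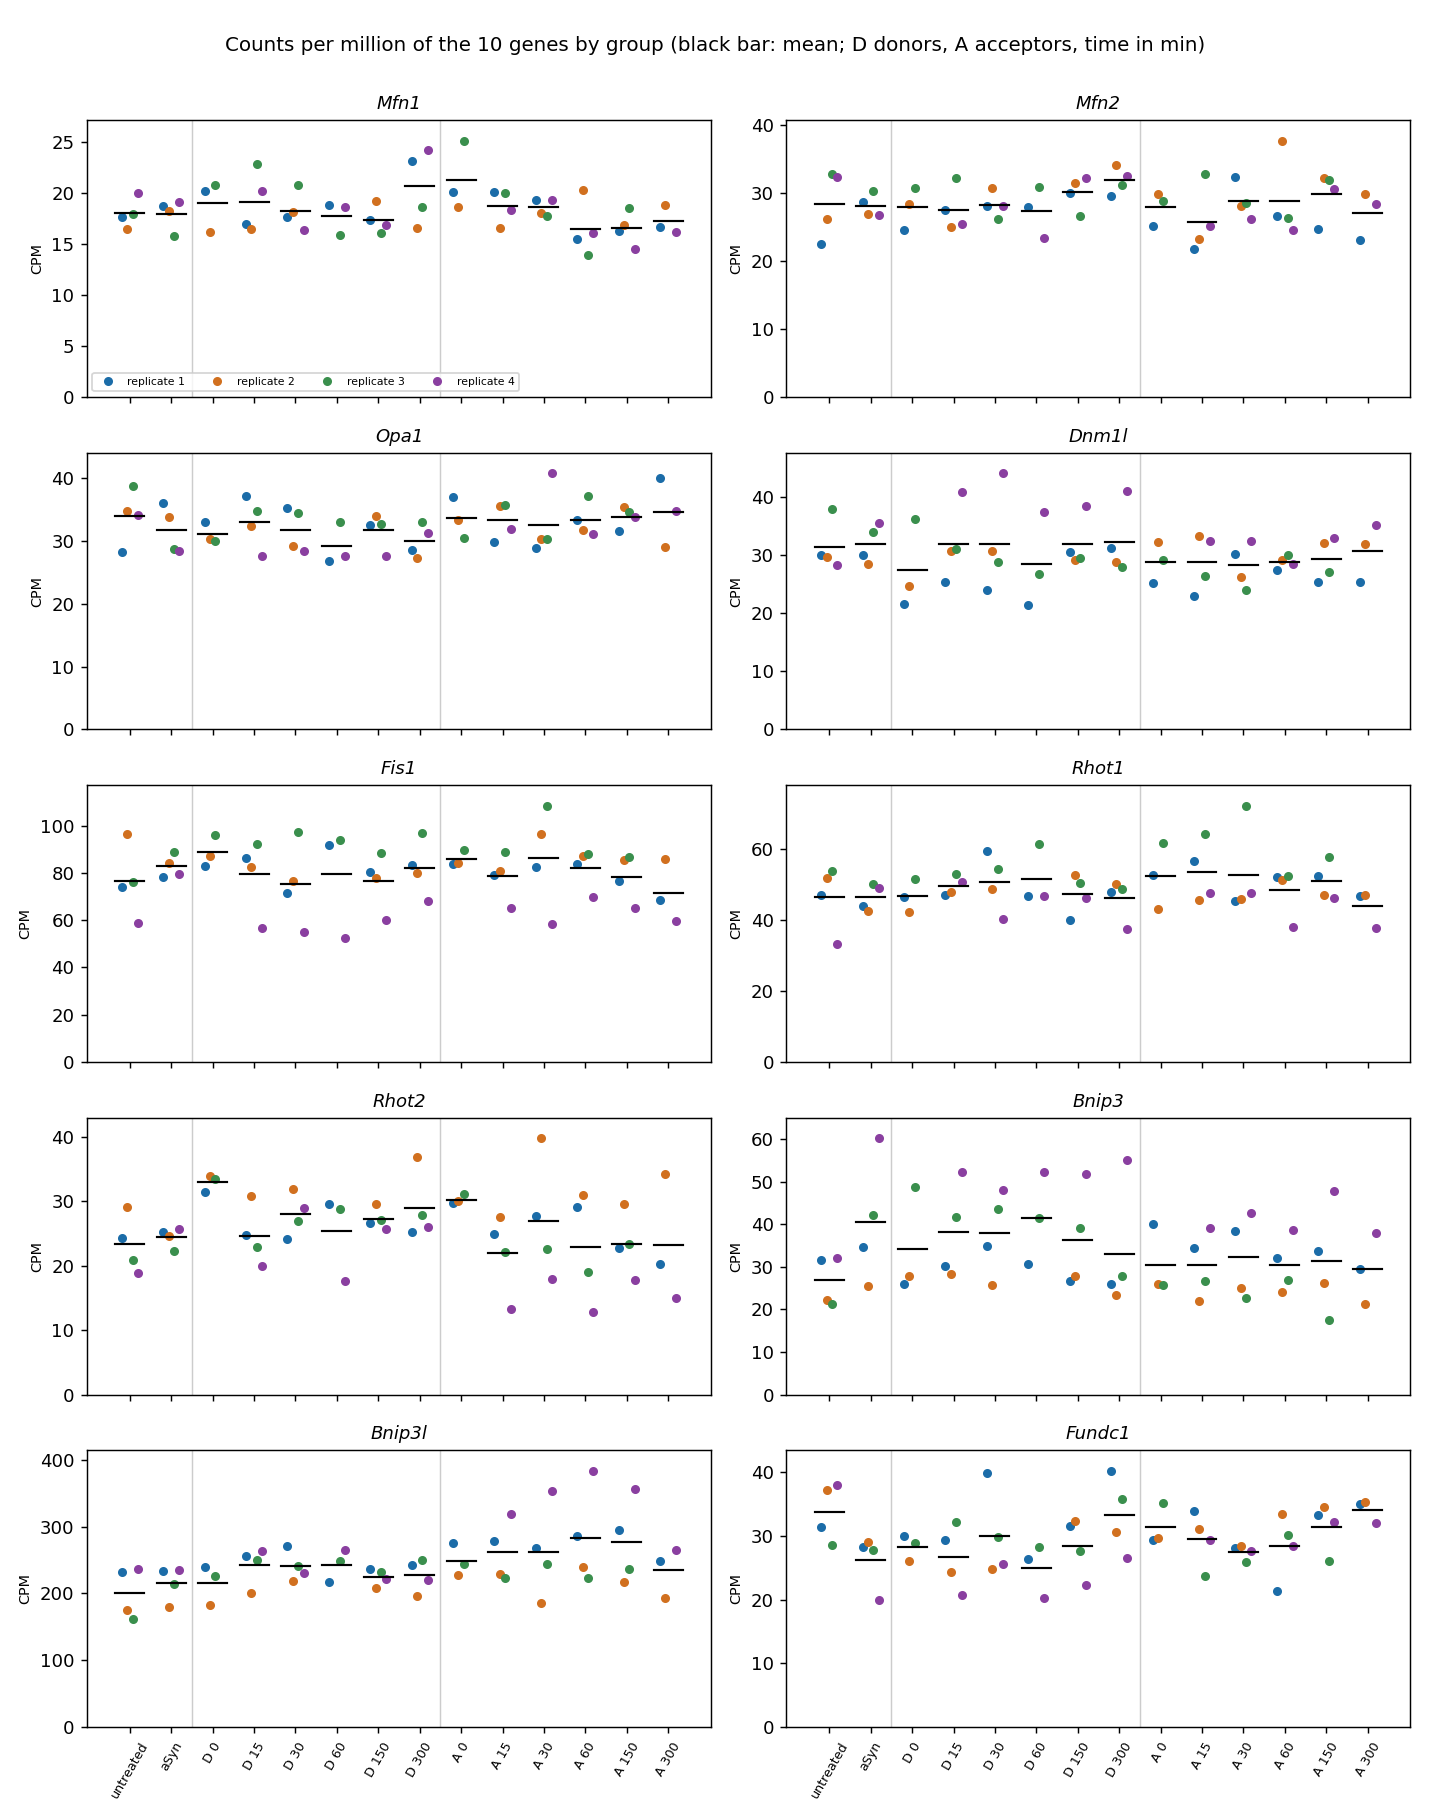
CPM (y axis, linear, from 0) of the 10 genes in the 14 groups (x axis), 1 point per unit coloured by replicate number, with a black bar for the group mean. Most group means lie within the spread of the points, and replicate 4 is highest for Bnip3 in every group that has it and lowest for Fis1 in all of them but aSyn-treated cells.

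None of the 10 members passed the main test, edgeR's quasi-likelihood test without a replicate term and with Benjamini-Hochberg adjustment over all genes at 0.05, in any of the 19 pairwise comparisons. For aSyn-treated against untreated cells 2.5% of all tested genes passed. For donors against aSyn-treated cells 0% passed at 0 to 150 min and 0.0304% at 300 min. For acceptors against untreated cells the share was 0% at 0, 15 and 300 min, 0.114% at 30 min, 0.0683% at 60 min and 0.137% at 150 min. Donors against acceptors gave 0.251% at 0 min, 0.888% at 15 min, 0.805% at 30 min, 0.418% at 60 min, 0.167% at 150 min and 0.0304% at 300 min. With so few genes called at all in most comparisons, 0 of 10 is near the background. DESeq2 also called 0 members. An unadjusted p under 0.05 was reached by 1 of 10 member values for aSyn-treated against untreated cells, where 17.1% of all genes did. It was reached by 1 of 60 for donors against aSyn-treated cells (a mean of 1.75% of all genes over the 6 times), 4 of 60 for acceptors against untreated cells (6.78%) and 0 of 60 for donors against acceptors (9.13%). The F tests for change over the 6 times called 0 members in donors (0.0607% of all genes), 0 in acceptors (0.00759%) and 0 for a donor-acceptor difference that changes with time (0%), and no member reached an unadjusted p under 0.05 in them.

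Same-numbered samples deviated together, so each comparison was also fitted with the replicate number as a block. That fit called Bnip3 in aSyn-treated cells and Bnip3l in acceptors at 30, 60 and 150 min, all higher than in untreated cells, and no other member in any comparison. Its share of all genes called is given beside these 4 calls. Where it called 0 members, it called 0.304% of all genes for donors at 300 min against aSyn-treated cells and 0% at the other 5 times. For donors against acceptors it called 4.28% at 0 min, 9.57% at 15 min, 10.8% at 30 min, 6.7% at 60 min, 5.19% at 150 min and 1.38% at 300 min, and in the F tests 0.577% in donors, 0.137% in acceptors and 0.0456% for the changing difference. These calls rest on the paired fit alone and are described with their dependence on single replicates below. All same-numbered pairs differed in 1 direction for 2 of 10 member values with aSyn against untreated cells. The count was 11 of 60 for donors against aSyn-treated cells, and 13 of 60 both for acceptors against untreated cells and for donors against acceptors. The share over all genes was not computed, so agreement of pairs is given below as a description only.

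No fusion gene passed in any comparison. Opa1 group means lay between 29.1 ± 3.4 CPM (SD, n = 3, donors at 60 min) and 34.5 ± 5.5 CPM (n = 3, acceptors at 300 min). For aSyn-treated against untreated cells the log2 fold change of Opa1 with the block was -0.10, with a 95% interval from -0.33 to 0.13. Mfn2 ran from 25.7 ± 4.9 CPM (n = 4, acceptors at 15 min) to 31.8 ± 1.9 CPM (n = 4, donors at 300 min). Its aSyn log2 fold change was -0.01 (-0.26 to 0.23). Mfn1 stood at 18.0 ± 1.5 CPM in untreated and 17.9 ± 1.5 CPM in aSyn-treated cells (n = 4 each), a log2 fold change of -0.01 (-0.26 to 0.25). None of these 3 intervals reaches beyond -0.33 or 0.25.

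Mfn1 was the fusion gene with the largest share of its variance between groups, 32.4%, against a median of 25.0% over all tested genes. This share was not corrected for the number of groups. The highest group of Mfn1 was acceptors at 0 min with 21.3 ± 3.4 CPM (n = 3). The 3 values there were 20.04, 18.61 and 25.11 CPM, and the highest of them, replicate 3, lies above both others. In acceptors at 60 min Mfn1 was lowest, at 16.4 ± 2.7 CPM (n = 4). Its F test for change over time in acceptors gave an unadjusted p of 0.091 and an adjusted p of 1 (edgeR, no block).

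Neither fission gene passed in any comparison, and their fitted ranges over the 14 groups, 0.20 log2 units for Dnm1l and 0.19 for Fis1, were the narrowest of the 10 members. Dnm1l was at 31.5 ± 4.3 CPM in untreated and 32.0 ± 3.4 CPM in aSyn-treated cells (n = 4 each), a blocked log2 fold change of 0.02 (95% interval -0.25 to 0.29). Over the 6 acceptor times its blocked log2 fold change against untreated cells ran from -0.16 to -0.05. Fis1 was at 76.4 ± 15.3 CPM in untreated and 82.8 ± 4.9 CPM in aSyn-treated cells (n = 4 each), with a blocked log2 fold change of 0.13 (-0.06 to 0.33). Donors had less Fis1 than acceptors in 4 of 4 same-numbered pairs at 30 min, by a blocked log2 difference of -0.20, which did not pass (edgeR adjusted p 0.189).

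Fis1 differed far more between replicates than between groups. Replicate number held 74.2% of its variance in log2 CPM and group 12.05%. Its mean was 80.2 CPM in replicate 1, 85.0 in replicate 2, 91.7 in replicate 3 and 62.4 in replicate 4. For Dnm1l replicate 4 was instead the highest, with 26.5 CPM in replicate 1, 29.8 in replicate 2, 29.9 in replicate 3 and 35.6 in replicate 4. Among all tested genes the median share was 33.9% for replicate number and 25.0% for group, so 6 of the 10 members (Fis1, Bnip3, Rhot2, Dnm1l, Bnip3l and Rhot1) lay above that median for replicate number. Chance raises a share over 14 groups more than a share over 4 replicate numbers. Neither share was corrected for this, so the 2 are not directly comparable.

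**Figure D2:**
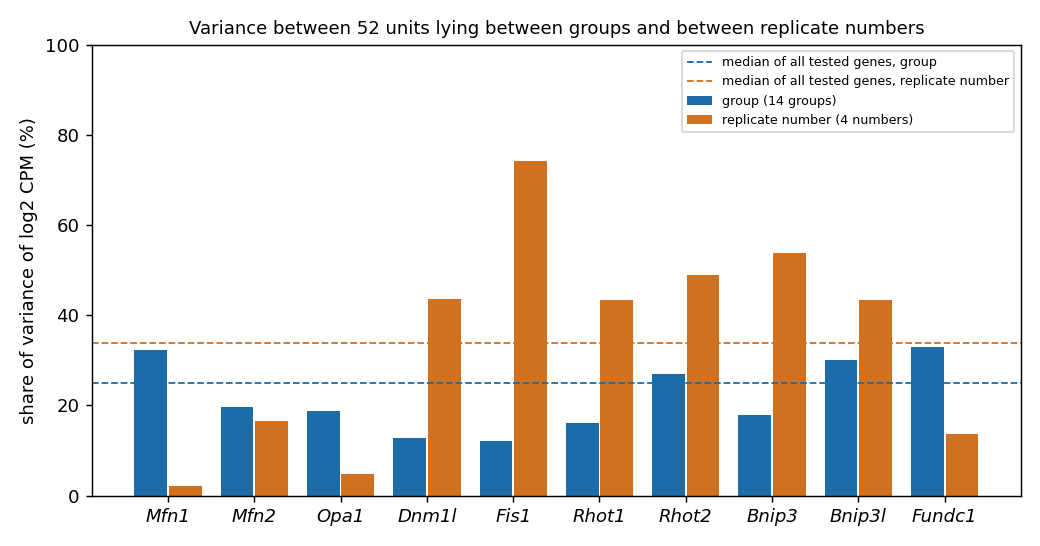
Share of the variance of log2 CPM over 52 units (y axis, %) that lies between the 14 groups (blue) and between the 4 replicate numbers (orange) for each gene, with dashed lines for the medians of all tested genes. Replicate number holds 74.2% for Fis1 and 53.8% for Bnip3, against 2.17% for Mfn1. The shares were not corrected for the number of groups or of replicate numbers, so blue and orange bars are not directly comparable.

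Of the Miro genes, Rhot1 was at 46.4 ± 9.3 CPM in untreated and 46.3 ± 3.8 CPM in aSyn-treated cells (n = 4 each), a blocked log2 fold change of 0.01 (95% interval -0.22 to 0.25). Acceptors at 15 min had the highest mean, 53.4 ± 8.5 CPM (n = 4), and acceptors at 300 min the lowest, 43.9 ± 5.2 CPM (n = 3). The latter group lacks replicate 3, which had the highest mean of Rhot1 (56.2 CPM, against 48.9, 47.3 and 43.4 CPM in replicates 1, 2 and 4). The lowest log2 fold change of Rhot1 in acceptors against untreated cells was -0.08 without the block and -0.007 with it. None of its 19 comparisons passed.

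Rhot2 had a wider fitted range over groups, 0.52 log2 units, against a median of 0.70 over all tested genes. It was highest at 0 min. Donors at 0 min had 31.3, 33.9 and 33.5 CPM and acceptors 29.6, 30.0 and 31.1 CPM in replicates 1 to 3. Untreated cells had 24.2, 29.1, 20.9 and 18.9 CPM in replicates 1 to 4, and aSyn-treated cells had 25.2, 24.6, 22.2 and 25.7 CPM. Neither 0 min group overlapped its reference group, nor each other.

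Among all genes, 5.67% did not overlap between donors at 0 min and aSyn-treated cells, 6.17% between acceptors at 0 min and untreated cells, and 16.8% between donors and acceptors at 0 min. Rhot2 also lay apart, by a very narrow gap, in donors at 150 min from aSyn-treated cells, where 0.934% of genes did not overlap. The lowest donor value there was 25.69 CPM and the highest aSyn-treated value 25.66 CPM. The means were 27.2 ± 1.7 and 24.4 ± 1.5 CPM (n = 4 each). Replicate 4, which had the lowest mean of Rhot2 (19.95 CPM, against 26.1, 31.4 and 25.2 CPM in replicates 1 to 3), is missing at 0 min. With the block, donors at 0 min exceeded aSyn-treated cells by 0.31 log2 units (-0.04 to 0.66), and acceptors at 0 min exceeded untreated cells by 0.29 (-0.06 to 0.64). Both intervals include 0, and neither comparison passed (edgeR adjusted p 0.961 and 0.459). In the annotation used here, GENCODE for GRCm38, Rhot2 lies on chromosome 17 from 25838457 to 25844851, minus strand. Gm20683 covers its 3′ end on the same strand, and Gm26694 does so on the opposite strand. How reads there were assigned, and whether strand was used, is not given in the sources used here, and the counts of Rhot2 are uncertain to that extent.

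Bnip3 was the member with the largest difference between aSyn-treated and untreated cells. It had 31.6, 22.3, 21.3 and 32.1 CPM in untreated replicates 1 to 4 and 34.7, 25.5, 42.2 and 60.2 CPM in the aSyn-treated ones. All 4 pairs were higher with aSyn, by little in replicates 1 and 2 and by much in replicates 3 and 4, and the groups overlapped. All 10 members overlapped between these groups, while 8.12% of all genes did not. The means were 26.8 ± 5.8 and 40.7 ± 14.7 CPM (SD, n = 4 each). The fit without the block gave a log2 fold change of 0.60 and an adjusted p of 0.307 (edgeR, SE 0.31). With it, Bnip3 rose by 0.55 (SE 0.19, adjusted p 0.0325), a fold of 1.47 with a 95% interval from 1.13 to 1.90, in a fit that called 19.2% of all genes.

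That call depended on the replicates. With the block, it held without replicate 1 (log2 fold change 0.72, adjusted p 0.0123). It was lost without replicate 2 (0.69, adjusted p 0.0663), without replicate 3 (0.42, adjusted p 0.0912) and without replicate 4 (0.44, adjusted p 0.232). The difference was positive in each of these fits. The microglia marker sum of replicate 4, where Bnip3 differed most, was 2711 CPM with aSyn and 5278 CPM without, and its part in the Bnip3 difference was not tested.

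**Figure D3:**
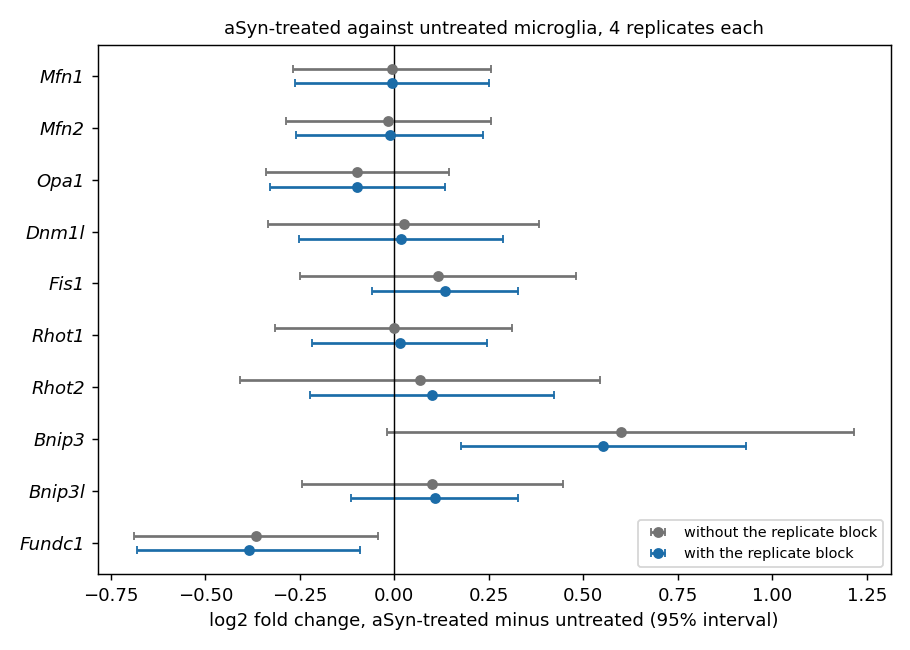
Log2 fold change of the 10 genes in aSyn-treated against untreated cells (x axis) with 95% intervals, without (grey) and with (blue) the replicate block, 4 replicates per group. The blue interval lies above 0 for Bnip3 and below 0 for Fundc1, and the other 8 include 0.

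In donors no difference of Bnip3 from aSyn-treated cells passed. Group means ran from 33.1 ± 14.8 CPM (n = 4, 300 min) to 41.5 ± 10.7 CPM (n = 3, 60 min). Donors at 60 min lack replicate 2, which had the lowest mean of Bnip3 (25.0 CPM, against 32.0, 32.8 and 46.5 CPM in replicates 1, 3 and 4). With the block, the log2 fold change against aSyn-treated cells was below 0 at all 6 times, between -0.31 and -0.04. At 300 min Bnip3 was lower than in aSyn-treated cells in 4 of 4 pairs, with a blocked log2 fold change of -0.31 (95% interval -0.69 to 0.07, adjusted p 0.703). Acceptors lay between untreated cells and donors, from 29.6 ± 8.3 CPM (n = 3, 300 min) to 32.2 ± 9.8 CPM (n = 4, 30 min). Donors exceeded acceptors at all 6 times by 0.15 to 0.32 log2 units with the block, with no time passing (lowest adjusted p 0.292). Ordered by mean, without adjustment for missing replicates, the 14 groups ran from untreated cells through the 6 acceptor groups to donors and aSyn-treated cells. Each step between neighbours was smaller than the SD of either group.

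Bnip3 lies on chromosome 7 from 138890836 to 138909519 of GRCm38, minus strand. An antisense gene, Gm45507, starts 128 bases from its 3′ end on the other strand and was not analysed here, and reads of the pair could not be told apart if strand was not used. Bnip3 is a textbook target of hypoxia-inducible factors, which bind around the core ACGTG. Its RefSeq promoter window (GRCm38.p6, 250 bases before to 50 after the start) was searched for that core on both strands, and the stretch around the match is shown because Bnip3 is the member with the largest difference with aSyn. The capitals mark CACGTG, a palindrome that holds ACGTG on either strand and also has the letters of an E-box.

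Bnip3 promoter, chr7:138909559-138909664, minus strand: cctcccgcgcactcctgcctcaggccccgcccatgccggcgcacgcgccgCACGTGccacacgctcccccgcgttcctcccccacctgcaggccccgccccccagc

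The core is common. It occurs in 19.6% of the 32817 promoter windows of the same length, and among the members in 3 of 13 windows, those of Bnip3 and Mfn2. The FOXO motif GTAAACA (3.6% of all windows) and the AP-1 motif TGANTCA (7.8%) were searched in the same way. Among the 13 windows of the members, FOXO had 0 matches and AP-1 matched in 1, that of Opa1. A match is a description of these letters and no evidence of binding. Bnip3l had no window in the table used.

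The calls of Bnip3l were in acceptors. Untreated cells had 232.3, 175.6, 161.1 and 236.7 CPM in replicates 1 to 4. Acceptors at 60 min had 286.3, 239.2, 223.3 and 383.5 CPM, and acceptors at 150 min had 295.6, 217.1, 236.1 and 356.8 CPM. At both times all 4 acceptor values exceeded the untreated value of the same number, while the groups as a whole overlapped. At 15 min the acceptors had 278.7, 229.2, 223.3 and 318.9 CPM and at 30 min 267.7, 186.1, 243.8 and 353.2 CPM, with replicate 2 at 30 min only slightly above its untreated partner. At 0 min replicates 1 to 3 had 276.2, 227.1 and 243.6 CPM. At 300 min replicates 1, 2 and 4 had 249.2, 192.5 and 264.99 CPM.

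Against a mean of 201 ± 38.7 CPM in untreated cells (SD, n = 4), acceptors at 60 min had 283 ± 72.1 CPM (n = 4). The fit without the block gave 0.49 on the log2 scale and an adjusted p of 0.375 (edgeR, SE 0.17). With the block Bnip3l rose by 0.48 (adjusted p 0.00793), a fold of 1.40 with a 95% interval from 1.198 to 1.63. At 150 min it rose by 0.45 with the block (adjusted p 0.0121), and at 30 min by 0.37 (adjusted p 0.0484). The blocked fits called 3.6% of all genes at 30 min, 4% at 60 min and 4.78% at 150 min.

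At the other times the block gave log2 fold changes of 0.38 at 0 min (adjusted p 0.107), 0.38 at 15 min (0.0507) and 0.21 at 300 min (0.481), and called 0.995%, 2.25% and 0.623% of all genes. Whether the difference itself changed over the 6 times was tested by the F test, which did not pass (blocked adjusted p 1). All 6 comparisons share the 4 untreated units, so they are not independent of each other. Acceptors were also stained with a dye and, per the protocol, sorted. The part of these steps in any difference from untreated cells was not tested.

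Leaving out replicates moved these calls as well. At 60 min the blocked call held without replicate 2 (log2 fold change 0.51, adjusted p 0.0474), without replicate 3 (0.49, 0.0397) and without replicate 4 (0.40, 0.0253), and was lost without replicate 1, where the log2 fold change was 0.55 (adjusted p 0.0616). At 150 min it held without replicate 4 (0.39, adjusted p 0.0252). It was lost there without replicate 1 (0.49, adjusted p 0.0776), replicate 2 (0.50, 0.0503) or replicate 3 (0.42, 0.0646). At 30 min it was lost whichever replicate was left out (log2 fold changes 0.29 to 0.47, adjusted p 0.0781 to 0.279). At 0 min, by contrast, Bnip3l passed in the blocked fit without replicate 4 (log2 fold change 0.40, adjusted p 0.0249).

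**Figure D4:**
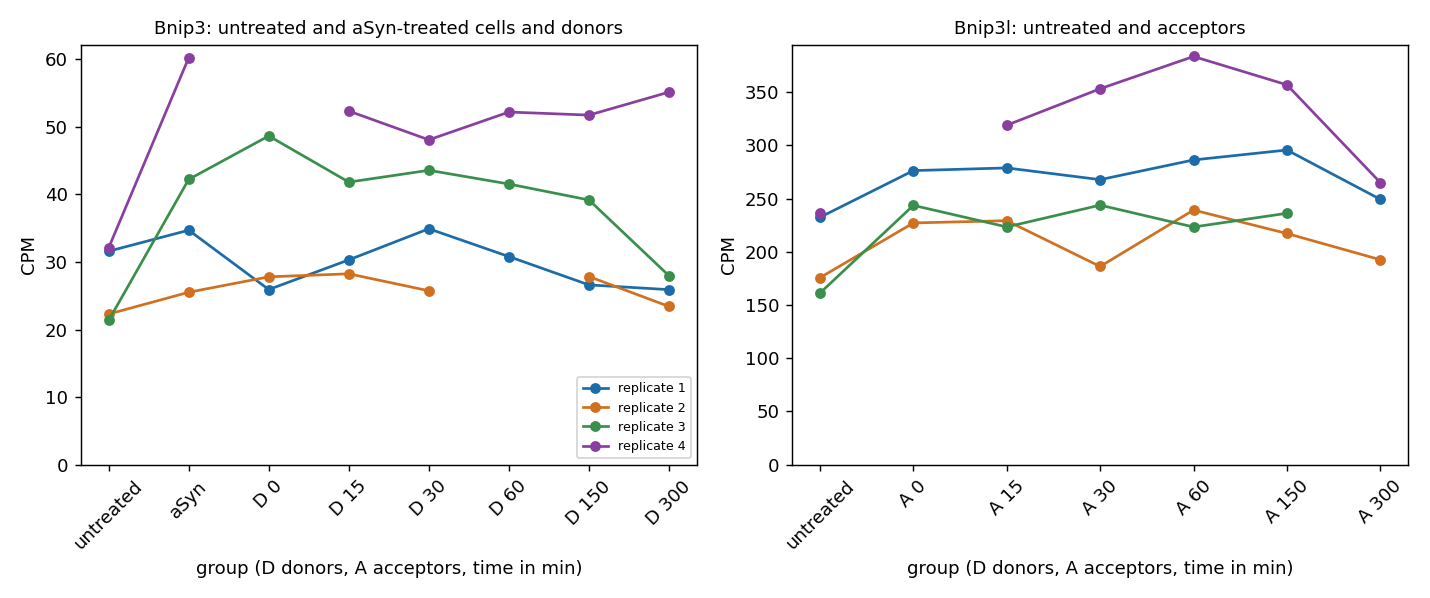
CPM (y axis, linear, from 0) of Bnip3 in untreated cells, aSyn-treated cells and donors (left) and of Bnip3l in untreated cells and acceptors (right), with lines joining values of 1 replicate number in adjacent groups. Bnip3 is higher with aSyn in all 4 replicates, by most in replicate 4 (32.1 to 60.2 CPM), and Bnip3l peaks at 383 CPM in replicate 4 at 60 min.

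With aSyn alone, Bnip3l was at 232.98, 180.2, 214.8 and 235.7 CPM in replicates 1 to 4, close to untreated cells except in replicate 3. The mean was 216 ± 25.5 CPM (n = 4), a blocked log2 fold change of 0.11 (95% interval -0.12 to 0.33). Over the 14 groups the order ran from untreated cells, the lowest, to acceptors at 60 min, and each step between neighbours was smaller than the SD of either group. Donors lay between 216 ± 29.8 CPM (n = 3, 0 min) and 243.3 ± 24.1 CPM (n = 3, 60 min). The first of these groups lacks replicate 4, which had the highest mean of Bnip3l (279 CPM). The second lacks replicate 2, which had the lowest (204 CPM). With the block, donors differed from aSyn-treated cells by log2 fold changes of 0.07 to 0.17. At 150 min donors had less Bnip3l than acceptors in 4 of 4 pairs, with 224.7 ± 12.6 against 276 ± 63.2 CPM (n = 4 each). The blocked log2 difference there was -0.27 (95% interval -0.49 to -0.05), and it did not pass (adjusted p 0.143), in a fit that called 5.19% of all genes. Bnip3l lies on chromosome 14 from 66985239 to 67008877 of GRCm38, minus strand. It has a transcribed processed pseudogene, Bnip3l-ps, on chromosome 12, which was not analysed here, and reads could be shared between the copies.

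The ratio of the paralogues Bnip3 and Bnip3l within a unit put these values side by side. Its mean log2 value was -2.91 ± 0.05 in untreated cells, with all 4 units close together, and -2.47 ± 0.39 in aSyn-treated cells (SD, n = 4 each). In donors the mean lay between -2.86 and -2.58. In acceptors it lay between -3.21 and -3.02. Donors and aSyn-treated cells thus had more Bnip3 per Bnip3l on average than untreated cells, and acceptors less. In donors at 300 min, where the mean was -2.86 ± 0.58 (n = 4), the units ran from -3.23 to -1.99. They lay on both sides of the untreated units, which ran from -2.98 to -2.88. Bnip3 in replicate 4 of that donor group was 55.1 CPM, against 23.4 to 28.0 CPM in the others. Donor units at 0, 15, 30 and 150 min also lay on both sides of the untreated ones. So did acceptor units at 0, 30 and 300 min, while all acceptor units at 15 and 60 min lay below the untreated ones. These ratios were not tested.

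Fundc1 had lower values with aSyn. It had 31.5, 37.2, 28.6 and 38 CPM in untreated replicates 1 to 4 and 28.3, 29.1, 27.8 and 19.9 CPM in aSyn-treated ones. It was lower in 4 of 4 pairs, by little in replicates 1 and 3, and the groups overlapped. On the log2 scale it differed by -0.37 (SE 0.16, unadjusted p 0.028, edgeR adjusted p 0.226) without the block and by -0.39 (adjusted p 0.0574) with it, so Fundc1 did not pass in either fit. The blocked 95% interval ran from -0.68 to -0.09. Without replicate 4, the replicate whose microglia marker sum was lowest, the blocked difference was -0.19 (adjusted p 0.514).

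In donors at 300 min Fundc1 was at 33.3 ± 6.0 CPM, higher than in aSyn-treated cells in 4 of 4 pairs (blocked log2 fold change 0.34, adjusted p 0.470). In acceptors at 30 min it had 28.2, 28.5, 26.0 and 27.6 CPM, all below the lowest untreated value, where 3.55% of all genes did not overlap between these groups. The blocked log2 fold change there was -0.31 (adjusted p 0.244). Fundc1 is on chromosome X from 17556564 to 17572325 of GRCm38, minus strand.

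The other members lie on chromosome 3 (Mfn1, 32529465 to 32579239, plus strand), chromosome 4 (Mfn2, 147873599 to 147904704, minus strand), chromosome 16 (Opa1, 29579334 to 29654884, plus strand, and Dnm1l, 16312230 to 16358959, minus strand), chromosome 5 (Fis1, 136953275 to 136966234, plus strand) and chromosome 11 (Rhot1, 80209019 to 80267907, plus strand).

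The genes most like 3 members in their pattern were found by Pearson correlation over the 14 group values, taken for the members with the widest fitted range. Those nearest to Bnip3 were Cd33, Abr and Baiap2 (r = 0.95 each). Those nearest to Bnip3l were Id3, Map1lc3b and Atg12 (r = 0.90 each), of which the last 2 encode an LC3-family protein and an autophagy conjugation protein. Those nearest to Rhot2 were Ebna1bp2 (r = 0.87), Gpatch11 (0.84) and 2410131K14Rik (0.83). These correlations are descriptions over 14 values that share libraries and replicates. Between members, the strongest over groups was that of Bnip3 with Fundc1 (r = -0.78). Over the 52 units, after the mean of each replicate number was removed from log2 CPM, their correlation was -0.28.

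Related genes were taken from 5 lists. Of 27 tested genes of fusion, fission and inner-membrane shaping, 2 were higher and 0 lower in aSyn-treated than in untreated cells without the block, and 2 and 1 with it, where 2.5% and 19.2% of all genes passed. The risers were Mief1 and Mief2, which encode outer-membrane receptors for Dnm1l. Mief1 rose from 19.5 ± 1.8 to 29.5 ± 3.8 CPM (SD, n = 4 each, log2 fold change 0.60, adjusted p 0.0257), and Mief2 from 9.88 ± 1.19 to 15.4 ± 1.6 CPM (0.64, adjusted p 0.0324). Without the block, Mief1 was lost on leaving out replicate 2, 3 or 4 (adjusted p 0.148, 0.183 and 0.110), and Mief2 on leaving out replicate 1, 3 or 4 (0.0982, 0.260 and 0.0691). When only these 2 groups were fitted, neither passed (adjusted p 0.138 and 0.144). With the block, Mief1 passed without each of the 4 replicates (adjusted p 0.000605 to 0.0249), and Mief2 without 3 of them (0.00963 to 0.0235) but not without replicate 3 (0.0646). Over all these fits the log2 fold change lay between 0.49 and 0.73 for Mief1 and between 0.56 and 0.77 for Mief2. The gene that fell with the block was Gdap1, at 0 in all 4 aSyn-treated units and at 0.49 ± 0.68 CPM in untreated cells. The list's median log2 fold change was 0.01, against -0.04 over all genes. Dnm1l itself, as given above, passed in neither fit.

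Of 25 tested genes of the PINK1-Parkin pathway and other mitophagy receptors or regulators, 1 rose with aSyn without the block, and 6 were higher and 3 lower with it. These are 1 and 9 genes of 25, where 2.5% and 19.2% of all genes passed. The list's median log2 fold change was -0.02. Sqstm1, the autophagy adaptor p62, rose from 548 ± 103 CPM in untreated to 2015 ± 482 CPM in aSyn-treated cells (n = 4 each, log2 fold change 1.88, adjusted p 0.000116). The blocked fit added rises of Usp15, Tax1bp1, Vcp, Src and Tbc1d15 and falls of Park7, Nipsnap1 and Usp8. Among these, Tax1bp1, another autophagy adaptor, went from 125 ± 21.3 to 186 ± 55.8 CPM. In acceptors at 150 min Sqstm1 was the only gene of the list that rose without the block, to 1315 ± 405 CPM (log2 fold change 1.26, adjusted p 0.0369). That call was lost on leaving out any of the 4 replicates (adjusted p 0.102 to 0.451), without the filter on low counts (0.0520) and when only the 2 groups were fitted (0.252). With the block it had an adjusted p of 1.81e-05 and passed without each replicate (adjusted p 9.02e-06 to 0.00523). The log2 fold change lay between 1.00 and 1.49 in all these fits.

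Of 13 tested genes of mitochondrial transport, 0 passed without the block in aSyn-treated against untreated cells. With it 3 fell, in the fit that called 19.2% of all genes, namely the motor and adaptor genes Kif5c and Klc1, and Armcx2. Kif5c, a kinesin heavy chain known from neurons, went from 7.02 ± 4.78 to 2.71 ± 0.56 CPM, while the summed level of 4 neuronal markers was 1.5 to 5.0 CPM in untreated and 0.9 to 1.5 CPM in aSyn-treated cells. Their part in it was not tested. Of 24 general mitochondrial import and matrix genes, 0 passed without the block and 3 rose with it, again beside 19.2% of all genes. They were Timm23 and Hspa9, which act in protein import, and Lonp1, a matrix protease.

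Of 17 tested hypoxia-inducible genes, 0 passed without the block, and 5 rose and 1 fell with it in aSyn-treated cells. The risers were Vegfa, Pgk1, Slc2a1, Hk2 and Hilpda. Pgk1, a glycolytic enzyme, went from 345 ± 34.9 to 607 ± 179 CPM (blocked log2 fold change 0.76, adjusted p 0.00153), and Hilpda, a lipid droplet protein, from 32.5 ± 4.9 to 117 ± 84.1 CPM. Pdk1, the pyruvate dehydrogenase kinase that is a textbook hypoxia target, fell from 46.8 ± 13.3 to 23.2 ± 11.3 CPM (blocked log2 fold change -1.11). The list's median log2 fold change was 0.10 without and 0.08 with the block, and the same fit called 19.2% of all genes.

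In the other comparisons, list genes passed with the block alone, apart from Sqstm1 in acceptors at 150 min. For acceptors against untreated cells, where the blocked fit called between 0.623% (300 min) and 4.78% (150 min) of all genes, at most 4 of the 25 mitophagy genes passed at 1 time. Sqstm1 rose at all 6 times, by 0.73 to 1.19 on the log2 scale with the block. Tax1bp1 rose at 15, 60, 150 and 300 min (0.47 to 0.56), Tbc1d15, a Rab regulator, at 15, 60 and 150 min (0.69 to 0.80), Nbr1 at 30 and 60 min (0.34 and 0.35) and Ulk1, the kinase that starts autophagy, at 30 min (0.61). Mief2 rose at 30 and 150 min (0.58 and 0.61) and Mief1 at 60 min (0.48). Kif5c fell at 30 and 60 min, and Hspa9 rose at 60 min. Of the hypoxia-inducible genes, Vegfa and Hilpda rose at 60 min and Pdk1 fell at 15 min. Vegfa was at 37.5 ± 48.6 CPM and Hilpda at 110 ± 133 CPM in acceptors at 60 min, so the SD exceeded the mean for both. Untreated cells had 3.66 ± 2.10 and 32.5 ± 4.9 CPM. Among list genes, dependence on single replicates is given only for Mief1, Mief2 and Sqstm1. The acceptor comparisons share the 4 untreated units, and those at 0 and 300 min have 3 acceptor units.

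For donors against acceptors the blocked fit called 4.28% of all genes at 0 min, 9.57% at 15 min, 10.8% at 30 min, 6.7% at 60 min and 5.19% at 150 min. Sqstm1 was higher in donors at each of these 5 times, by 0.62 to 1.11 on the log2 scale with the block, and Src at 15, 30 and 60 min by 0.89 to 1.34. Tbk1, a kinase that acts on autophagy adaptors, was higher at 15 min. Optn, another adaptor, and Usp8 were lower at 30 min, and Ulk1 at 150 min. Of the fusion, fission and inner-membrane list, Immt was higher and Mcu, the calcium uniporter, lower at 30 min, and Miga1 was lower at 60 min. Of the transport list, Armc10 (15 min), Kif5a (30 min) and Armcx2 (60 min) were lower. Kif5a (0.72 against 2.33 CPM) and Armcx2 (1.37 against 3.84 CPM) had low values in both groups. Among the general mitochondrial genes, Slc25a5, an ADP/ATP carrier, was higher at 15, 30 and 150 min, Vdac3 at 30 min and Lonp1 at 60 min, and Polg, the mitochondrial DNA polymerase, was lower at 0 min.

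Of the hypoxia-inducible genes, 4 of 17 were higher in donors than in acceptors at 0 min (Vegfa, Slc2a1, Hk2 and Hilpda), and at 15 min 5 of 17 (Pgk1, Ldha, Slc2a1, Hk2 and Hilpda). At 30 min Slc2a1 and Hk2 were higher and Ankrd37 lower, and at 60 min Slc2a1 and Hk2 were higher. Slc2a1, a glucose transporter, differed by 0.74 to 0.85 and Hk2, a hexokinase, by 0.72 to 0.93 on the log2 scale with the block at these 4 times. None of the list passed at 150 or 300 min. In donors at 300 min Hilpda was lower than in aSyn-treated cells, with 46.0 against 117 CPM (blocked log2 fold change -1.29, adjusted p 0.0216), where 0.304% of all genes passed. It also passed the blocked F test for change over the 6 times in donors (adjusted p 0.00449), which 0.577% of all genes did.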

How the data were processed

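The values are the authors' raw counts by gene symbol as deposited, for 54 libraries made with QuantSeq 3′ chemistry and 50 bp single reads per the labels' protocols. The submitters' processing notes name STAR, Partek, DESeq2 and mm10, with no roles or versions. The counts were tested as deposited in R 4.3.3 with edgeR 4.0.16: TMM, filterByExpr with a minimum count of 10, 1 mean per group over all 14 groups, quasi-likelihood F tests and Benjamini-Hochberg adjustment over 13169 genes, called under 0.05. Same-numbered untreated libraries were closer to each other than to others and were summed. Log2 CPM used a prior count of 2. Replicate numbers come from the titles. Same-numbered samples deviated together (lowest correlation of any pair 0.20), so the numbers were taken to pair the samples, and the blocked fit is given beside the main one. Intervals come from the fold change and its F statistic. Alternatives were DESeq2 1.42.0, RLE scaling, no filter, all libraries as units, only the groups compared, the block and leaving out replicates. Leaving out replicates within the blocked fit was chosen after seeing the data. The fit without the block was tested on simulated data, with changes much larger than those of any member. The blocked fit was not tested in this way. All 10 members and the genes of 5 lists that passed in a pairwise comparison or a test over time were named, plus the 3 genes most like each of 3 members. Members and lists were chosen with earlier results of these data known. Promoters are from RefSeq.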

Additional observations from a re-analysis of the deposited data

Results flagged for a closer look

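In groups of 4, 8 of 100 sets of member values had 1 unit far from the others by Dixon's test at the 95% level, where chance flags about 1 in 20, and 6 of the 8 units were replicate 4. Bnip3 in donors at 300 min was 55.1 CPM in replicate 4 and 23.4 to 28.0 CPM in the others. Dnm1l in donors at 150 min was 38.4 CPM in replicate 4 and 29.1 to 30.5 CPM in the others. Fundc1 in aSyn-treated cells was 19.9 CPM in replicate 4 and 27.8 to 29.1 CPM in the others. Opa1 in acceptors at 30 min was 40.7 CPM in replicate 4 and 28.8 to 30.3 CPM in the others. Rhot1 in replicate 4 was low in acceptors at 60 min, with 37.9 CPM against 51.1 to 52.3 CPM, and in donors at 300 min, with 37.5 CPM against 48.0 to 50.0 CPM. Mfn2 in acceptors at 60 min was 37.7 CPM in replicate 2 and 24.6 to 26.5 CPM in the others. Rhot1 in acceptors at 30 min was 72.1 CPM in replicate 3 and 45.4 to 47.5 CPM in the others.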

How the results depend on the processing

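Of 1900 log2 fold changes of members recomputed under the other settings, 1896 stayed on the same side of the threshold and 4 were newly called, all with the replicate block. The main fit called 0 members, and few genes in most comparisons, so staying uncalled says little about stability. The 1900 values leave out the fits that combined the block with leaving out 1 replicate. The count of members called against untreated cells was 1 for aSyn with the block, and 3 over the 6 acceptor times, in place of 0 without it. The block called 19.2% of all genes for aSyn, so 1 of 10 members lies below that share. For acceptors the block called 0.623% to 4.78% of all genes, beside 3 of 60 member values. Within the blocked fit, leaving out 1 replicate gave 0 to 1 calls for aSyn and 0 to 3 for acceptors (share of all genes not given here). Without the block it gave 0 throughout. The block changed no other member call. No called value was reversed, and 158 uncalled values changed sign, the largest of them 0.21 in size. Over all genes, the count for aSyn-treated against untreated cells was 329 and ranged from 37 (only these groups fitted) to 2524 (block), with 603 by DESeq2, 618 with all 54 libraries as units and 73 to 301 without 1 replicate. With 3 or 4 units per group, changes of the size seen in most members lie within the intervals. The cause was not tested.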
